A study of Bos taurus with 16 samples.

Results

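VCAM1, vascular cell adhesion molecule 1, was followed over 16 Affymetrix bovine arrays, 11 of endometrium and 5 of blastocysts. Among 24016 probe sets that are not controls, 1 carries VCAM1 as its single gene symbol, Bt.7043.2.S1_a_at. It is the sole probe set named VCAM1 alone, among 9155 genes named by a single symbol. The gene was chosen by a measured value, its lower signal in day 7 endometrium of cows with subclinical endometritis. Differences that use the day 7 arrays are therefore given as descriptions with their standard errors and with no test.

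The series drew on 49 superovulated cows whose uterus was sampled with a cytobrush, which lifts cells from the uterine lining. A cow counted as having subclinical endometritis (SE) when the brush held any polymorphonuclear cells and as healthy (HE) when it held 0. Endometrium came from 3 SE and 2 HE pools taken just before flushing on day 7, and from 3 SE and 3 HE pools taken 2 h before insemination on day 0. Blastocysts flushed on day 7 came from 3 SE and 2 HE pools of 10 embryos each, and all cows, SE and HE alike, had been superovulated. Each array carried 1 pool of RNA, amplified in 2 rounds from 15 ng. The sources used here do not give which cows entered which pool, so p-values measure the spread between pools, and it is not known whether day 0 and day 7 pools share cows.

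VCAM1 is a cell surface protein of the immunoglobulin superfamily. On endothelium it is induced by inflammatory cytokines through NF-kB, and it holds passing leukocytes by binding their integrin ITGA4 paired with ITGB1 or ITGB7. Outside endothelium it is known on stromal cells, macrophages and some epithelia, and its extracellular part can be shed by proteases.

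Array medians of the log2 signal ran from 4.18 to 4.30 in endometrium and from 3.08 to 3.12 in blastocysts, and no level was set across the tissues. A probe set counted as measured in a tissue when its log2 signal was above 4 on at least 2 arrays, which held for 13421 probe sets in endometrium and 11014 in blastocysts. Day 0 SE replicate 2 correlated less with its day (mean r of 0.961 to the 5 remaining arrays) than those arrays did (0.975 to 0.979). The brushings carried epithelial RNA, with 11 of 12 epithelial markers on the array measured. EPCAM, an adhesion molecule of epithelia, averaged 13.42 and 13.45 in day 7 SE and HE endometrium, and KRT19, a simple epithelial keratin, 10.79 and 11.08. In blastocysts the 5 embryo lineage markers on the array were all measured, and in endometrium 0 of them were.

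VCAM1 was measured on all 5 day 7 endometrium arrays and on 0 of the 6 day 0 arrays. On day 7 its log2 signal was 7.70, 6.53 and 7.23 in the SE pools, against 9.29 and 8.87 in the HE pools. On day 0 it was 2.15, 1.99 and 2.46 in the SE pools, against 2.00, 1.98 and 2.24 in the HE pools. The day 7 arrays are all high and the day 0 arrays all low, with the 3 SE pools of day 7 below both HE pools.

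**Figure D1:**
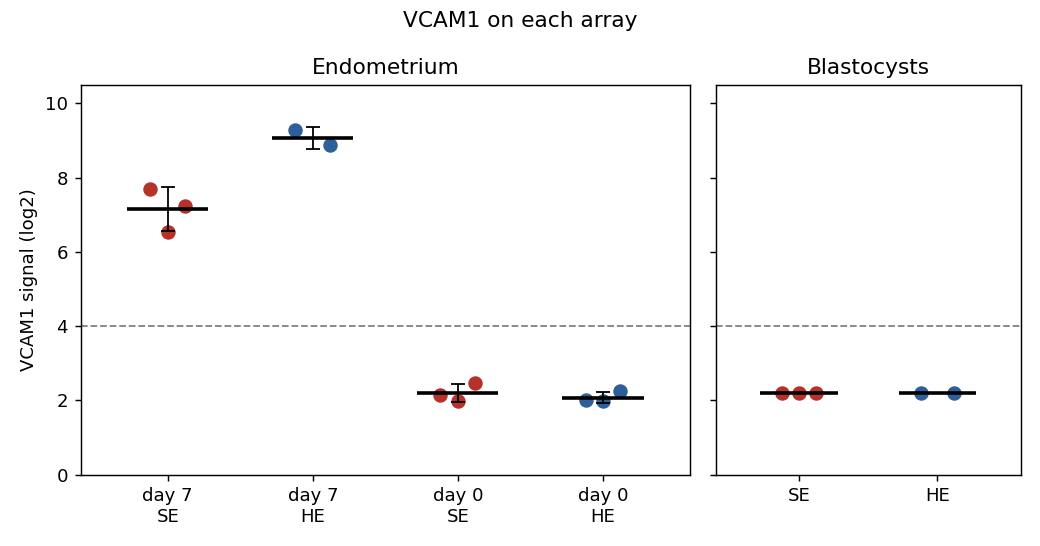
Log2 signal of VCAM1 on each array, with endometrium on the left and blastocysts on the right. Points are pools, horizontal bars are group means, error bars are SDs and the dashed line is the filter level of 4. Day 7 endometrium lies at 6.53 to 7.70 in SE and 8.87 to 9.29 in HE, while all day 0 and blastocyst arrays lie below the line.

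On day 7 VCAM1 averaged 7.15 ± 0.59 in SE endometrium (SD, n = 3) and 9.08 ± 0.30 in HE endometrium (SD, n = 2), and on day 0 it averaged 2.20 ± 0.24 in SE and 2.08 ± 0.15 in HE (SD, n = 3 each). Day 7 HE was thus the highest group and day 7 SE the next, with no overlap between them or with day 0. The day 0 groups overlapped and were below the filter, so they have no order.

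VCAM1 was lower in SE than in HE endometrium on day 7. The difference was -1.93 on the log2 scale (standard error 0.30), a 3.81-fold lower signal, and the gap between the highest SE pool and the lowest HE pool was 1.17. By size this was number 9 among the falls of 13421 probe sets. This difference chose the gene and carries no test. Over all measured probe sets, 8.33% likewise had their 3 SE pools below both HE pools of day 7. In bulk RNA, fewer cells of a type and less RNA per cell cannot be told apart.

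The day 0 means of SE and HE come from arrays that did not choose the gene. Their difference was 0.13 (standard error 0.27, limma adjusted p = 0.938), with a 95% interval from -0.48 to 0.73. The spread behind the standard error, p and interval was shared by all 11 endometrium arrays, day 7 included. VCAM1 also passed the filter only through day 7. Both groups lie at the bottom of the scale, where the array cannot show a difference in a low transcript. Without day 0 SE replicate 3, the highest of the 6, the difference was -0.0018.

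The signal was higher on day 7 than on day 0 in both statuses. In SE endometrium the difference was 4.95 (standard error 0.27), and set against the filter level of 4 in place of the unmeasured day 0 signal it was at least 8.88-fold. In HE endometrium the difference was 7.01 (standard error 0.30), at least 33.8-fold on the same basis. Every day 7 pool was above every day 0 pool, with gaps of 4.07 in SE and 6.62 in HE. That separation held for 29.3% of all measured probe sets in SE and 32.2% in HE, so separation by day alone is common on these arrays. The SE rise minus the HE rise was -2.06 (standard error 0.41). It rests on the same day 7 arrays and on day 0 values below the filter, and it was not tested.

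**Figure D2:**
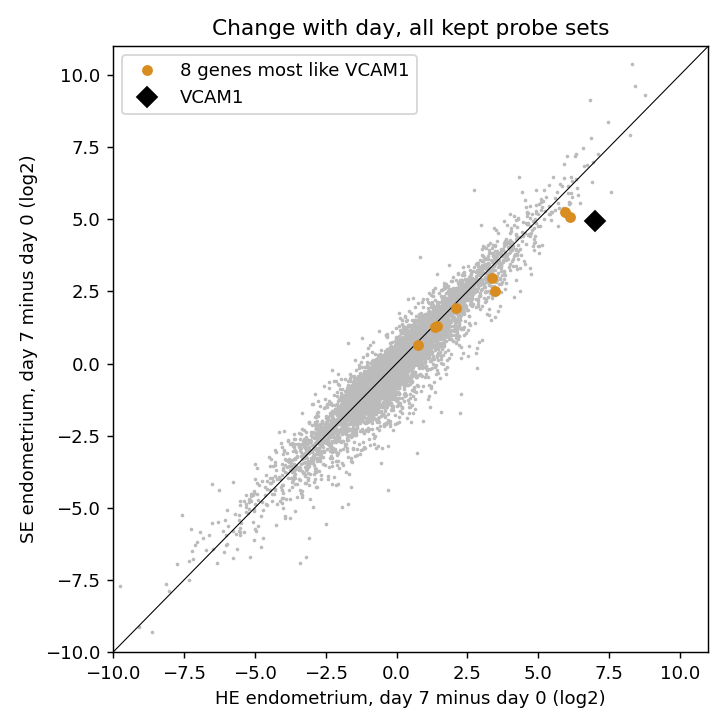
Day 7 minus day 0 on the log2 scale in SE endometrium (vertical axis) against HE endometrium (horizontal axis), with 1 point for each of 13421 measured probe sets. The line marks equal change. VCAM1 lies at 4.95 in SE and 7.01 in HE, below the line, as do the 8 genes whose pattern over arrays was most like it.

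VCAM1 belongs to a small class of probe sets at or below 4 on all 6 day 0 arrays and above 4 on all 5 day 7 arrays. There were 188 of these (1.40% of those measured), for 95 named genes, and they passed the filter only through day 7. Their SE minus HE differences on day 7 were centred near 0, with a median of -0.05, quartiles of -0.31 and 0.24, and 98 lower against 90 higher. The range was -1.93 to 1.10. VCAM1 was its lowest value, but this same difference chose the gene, so its place there is no separate result. Among the 188, 17 (9.04%) had each SE pool below each HE pool, close to the 8.33% of all measured probe sets.

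**Figure D3:**
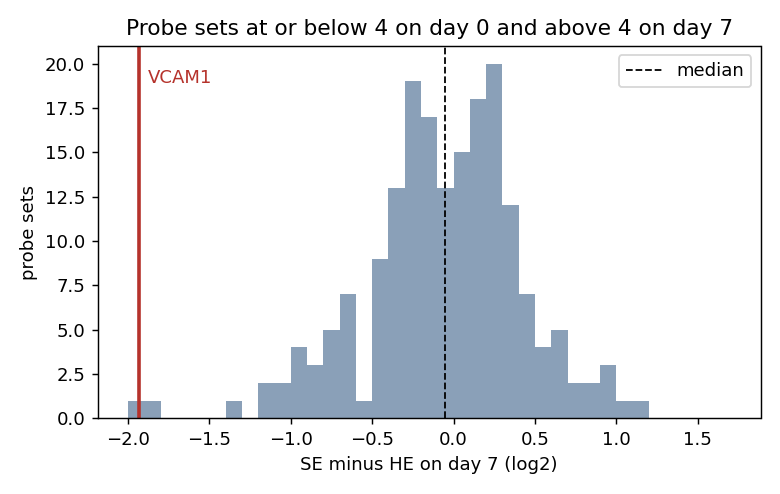
Distribution of SE minus HE differences on day 7 (log2, horizontal axis) over the 188 probe sets that were at or below 4 on every day 0 array and above 4 on every day 7 array. The vertical axis counts probe sets, the dashed line is the median of -0.05 and the red line is VCAM1 at -1.93. VCAM1 was chosen by this difference.

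By definition, other genes of this class were also above 4 on day 7 in both statuses. PRODH, the first enzyme of proline breakdown, averaged 11.45 in SE and 11.34 in HE on day 7, and SPHK1, which makes sphingosine 1-phosphate, 9.22 and 9.17. LPL, the lipase that frees fatty acids from circulating lipoproteins, lay the other way at 10.35 in SE and 9.53 in HE. CEACAM1, an adhesion molecule of epithelia and leukocytes, averaged 8.36 in SE and 8.67 in HE. The next lowest named genes after VCAM1 were SUSD2 at -1.19 (standard error 0.43), DPYSL2 at -1.04 (standard error 0.52) and COL4A3 at -0.94 (standard error 0.19). DPYSL2 is a microtubule-binding protein.

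The genes whose pattern over the 11 endometrium arrays was most like that of VCAM1 were COL4A3 (Pearson r = 0.99), IQSEC1 (0.99), SUSD2 (0.98), FDX1 (0.98), ZDHHC13 (0.98), CA13 (0.98), AFG3L2 (0.98) and RAB9B (0.98). These values describe the shared step from day 0 to day 7: of 8642 named probe sets compared, 21.6% had an r above 0.9 or below -0.9. With the 2 day 7 HE arrays, the farthest from the VCAM1 median, left out, the r of these 8 genes stayed at 0.98 to 0.99. Within groups the likeness was weaker, and the correlation of deviations from group means was -0.18 for COL4A3, 0.32 for SUSD2, 0.67 for FDX1 and 0.79 for AFG3L2.

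COL4A3, a chain of basement membrane collagen, was closest in shape. On day 7 it ran from 4.39 to 5.03 in SE pools and from 5.52 to 5.85 in HE pools, and on day 0 it lay between 2.20 and 2.26 on all arrays. SUSD2, a membrane protein with a sushi domain, ran from 6.33 to 7.20 in SE pools and from 7.26 to 8.44 in HE pools on day 7. Its day 0 means were 1.59 in SE and 1.73 in HE, below the filter. In both genes the HE pools lay above the SE pools on day 7 without overlap, and neither was measured on day 0. The day 7 arrays entered the r that chose these genes, so this ordering is partly built in. FDX1, the mitochondrial electron carrier of steroid synthesis, and IQSEC1, an exchange factor for ARF GTPases, also had each SE pool below each HE pool, by a mean of 0.18 for FDX1 and 0.33 for IQSEC1. The second IQSEC1 probe set did not go this way, with an SE minus HE difference of 0.06 on day 7. In ZDHHC13, CA13, AFG3L2 and RAB9B the SE and HE pools of day 7 overlapped.

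The reverse pattern belonged to SERPINA14, the uterine serpin secreted by the glands (r = -0.99), and to PSPH, NEDD4L and CTPS2 (r = -0.99 each). PSPH makes serine, NEDD4L is a ubiquitin ligase of ion channels and CTPS2 makes CTP. SERPINA14 averaged 5.52 in SE and 4.49 in HE endometrium on day 7, against 11.26 in SE and 11.74 in HE on day 0. On day 7 the SE and HE pools overlapped for SERPINA14. For PSPH, NEDD4L and CTPS2 the 3 SE pools were above both HE pools, as in 7.93% of all measured probe sets, with differences of 0.47, 0.16 and 0.22. The day 7 arrays also entered the r that chose these genes, so this order too is partly built in.

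The surroundings of VCAM1 were read from 7 lists. They held its integrin receptors, other adhesion molecules, leukocyte integrins, membrane anchors, shedding proteases, transcription factors, and inducing cytokines with their receptors and antagonist IL1RN. Of their 85 genes, 68 were on the array and 46 were measured in endometrium. By limma 0 of the 46 differed between SE and HE on day 0 (background 0.0224% of probe sets). At an unadjusted p under 0.05 were 5 members, and 1020 of all 13421 measured probe sets. On day 7 the count of limma calls was also 0 (background 0%). At an unadjusted p under 0.05 were 3 members, and 477 of all 13421 measured probe sets. The median difference over the 46 was 0.08 on day 0 and -0.10 on day 7, against -0.06 and 0.003 over all measured probe sets.

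Between the days many members changed, as did many probe sets of the whole array. In SE endometrium 10 of 46 rose (21.7%, background 26%) and 16 fell (34.8%, background 24.1%). In HE endometrium 12 rose (26.1%, background 21.8%) and 13 fell (28.3%, background 23.2%). The median change was -0.35 in SE and 0.0001 in HE, against 0.01 in SE and -0.03 in HE over all measured probe sets. Across all other settings and single pools left out, 21 of the 26 SE calls and 18 of the 25 HE calls were kept each time.

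**Figure D4:**
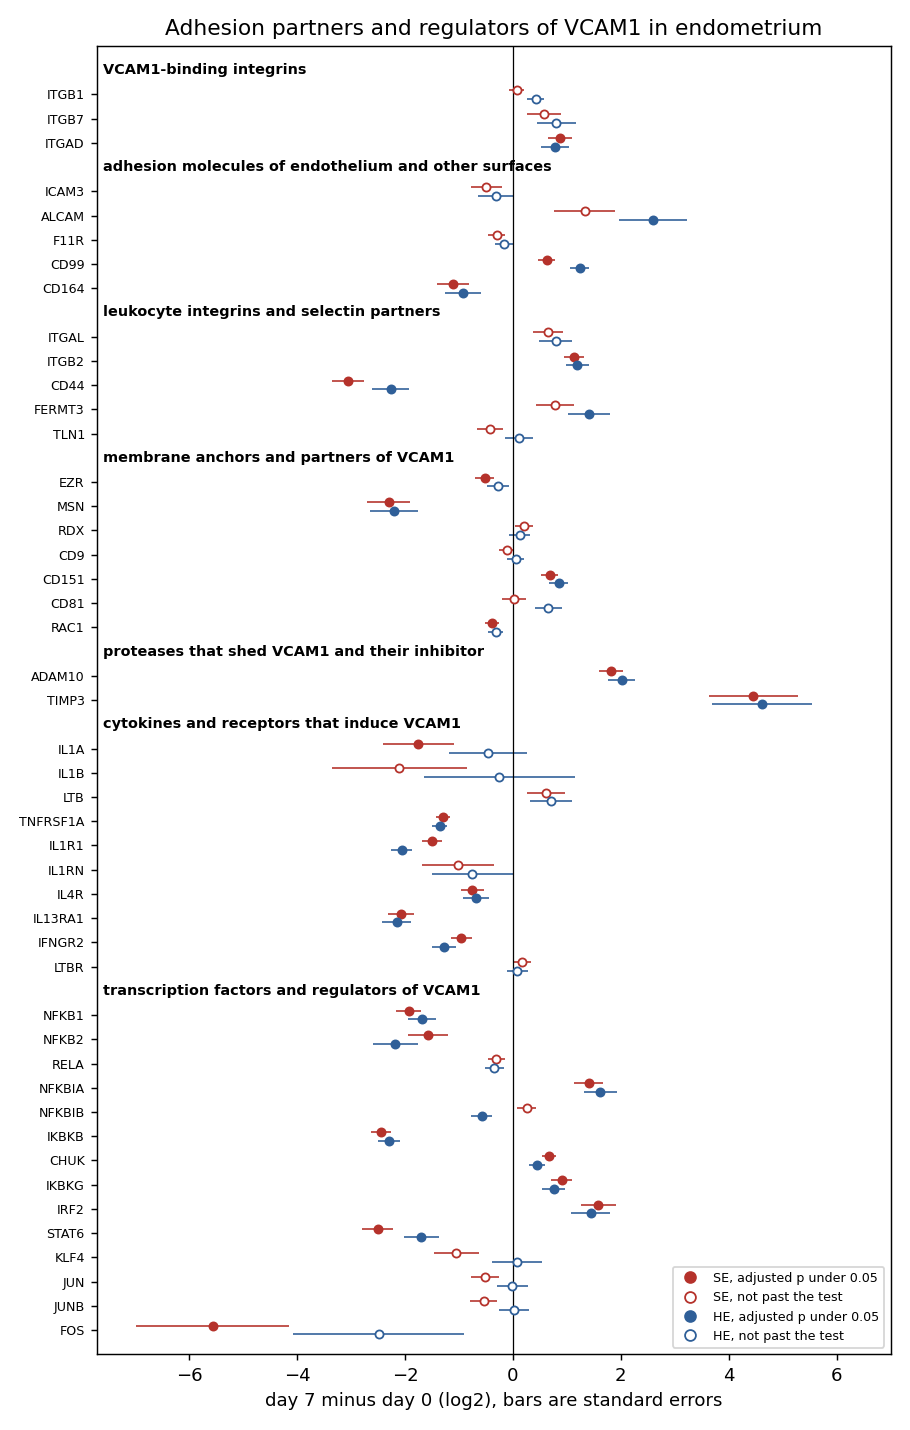
Day 7 minus day 0 (log2, horizontal axis) in SE (red) and HE (blue) endometrium for the 46 measured genes of the 7 lists, each with its limma standard error. Filled points passed the adjusted p of 0.05. TIMP3 and ADAM10 lie to the right, and cytokine receptors, IKBKB, STAT6, CD44 and MSN to the left.

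Of the leukocyte receptors of VCAM1, 3 of the 4 on the array were measured. ITGA4, the alpha chain of its main receptors, lay between 2.05 and 2.13 on every endometrium array and was below the filter. ITGB1, the widely expressed beta chain, lay between 12.42 and 13.09 and did not pass the test in SE (0.07, adjusted p = 0.698) or in HE (0.42, adjusted p = 0.0509). ITGB7, a lymphocyte beta chain, differed by 0.58 in SE (adjusted p = 0.163) and by 0.80 in HE (adjusted p = 0.0965). ITGAD, a leukocyte alpha chain, rose by 0.88 in SE (adjusted p = 0.00848) and by 0.78 in HE (adjusted p = 0.0283). It stood at 4.76 ± 0.08 in day 7 SE endometrium (n = 3) and 4.15 ± 0.32 in day 7 HE endometrium (n = 2), close to the filter. The ITGAD call in HE was lost without day 0 HE replicate 2, day 0 HE replicate 3 or day 7 HE replicate 2, with adjusted p up to 0.207.

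Most adhesion molecules of vascular endothelium were not measured in these brushings. Of 16 on the array, 11 stayed below the filter, among them ICAM1 (2.41 to 3.81 over all endometrium arrays), the selectins SELE and SELP, and the mucosal homing receptor MADCAM1. ALCAM, a homophilic adhesion molecule also found on epithelia, had a difference of 1.33 in SE (adjusted p = 0.0737) and rose by 2.61 in HE (adjusted p = 0.00729). CD99, which helps leukocytes pass between endothelial cells, rose by 0.63 in SE (adjusted p = 0.0085) and by 1.24 in HE (adjusted p = 0.000372). The second CD99 probe set read -0.55 in SE and -0.08 in HE, and the mean of both read 0.04 in SE (adjusted p = 0.833). CD164, a sialomucin, fell by 1.11 in SE (adjusted p = 0.011) and by 0.93 in HE (adjusted p = 0.044). The CD164 call in HE was lost on leaving out any 1 HE pool, with adjusted p up to 0.203.

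Among other leukocyte adhesion genes, ITGB2, the beta chain shared by the leukocyte integrins, rose by 1.13 in SE (adjusted p = 0.000638) and by 1.19 in HE (adjusted p = 0.00113). FERMT3, the integrin activator kindlin-3 of blood cells, had a difference of 0.78 in SE (adjusted p = 0.0857) and rose by 1.42 in HE (adjusted p = 0.014). The HE call of FERMT3 was lost without day 7 HE replicate 2 (adjusted p = 0.124). CD44, a hyaluronan receptor of leukocytes and epithelia, fell by 3.05 in SE (adjusted p = 2.28e-05) and by 2.27 in HE (adjusted p = 0.000439).

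Inside the cell VCAM1 is tethered to actin by ezrin and moesin and sits in tetraspanin platforms, and all 7 genes of that list were measured. MSN, moesin, fell by 2.30 in SE (adjusted p = 0.000912) and by 2.20 in HE (adjusted p = 0.0028), opposite in direction to VCAM1. EZR, ezrin, fell by 0.52 in SE (adjusted p = 0.0339) and differed by -0.28 in HE (adjusted p = 0.29). RAC1, a GTPase that acts downstream of VCAM1 binding, fell by 0.39 in SE (adjusted p = 0.0232) and differed by -0.32 in HE (adjusted p = 0.0831). The SE calls of EZR and RAC1 were each lost on leaving out 4 of the 6 SE pools in turn and with only the 2 groups compared. That of EZR was also lost with the replicate number as a block. Over these the limma adjusted p ran up to 0.109 for EZR and 0.0838 for RAC1. CD151, a tetraspanin, rose by 0.68 in SE (adjusted p = 0.00571) and by 0.85 in HE (adjusted p = 0.00371).

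Of the genes that shed VCAM1 or check its shedding, 2 were measured and both rose in each status. Over all measured probe sets 26% rose in SE and 21.8% in HE. TIMP3, an inhibitor of the shedding protease ADAM17, rose by 4.46 in SE (standard error 0.82, adjusted p = 0.00137) and by 4.62 in HE (standard error 0.92, adjusted p = 0.00257). On day 7 it averaged 9.79 in SE and 10.37 in HE, against 5.34 in SE and 5.75 in HE on day 0. ADAM10, a membrane sheddase, rose by 1.82 in SE (adjusted p = 8.84e-05) and by 2.02 in HE (adjusted p = 0.000127), with all 3 of its probe sets higher. Neither passed the test between SE and HE on day 7, with differences of -0.57 (standard error 0.92) for TIMP3 and -0.31 (standard error 0.25) for ADAM10.

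Of the 10 measured genes of the cytokine and receptor list, 6 fell and 0 rose in SE, with a median change of -1.15. Over all measured probe sets 24.1% fell and 26% rose in SE. In HE 5 of the 10 fell and 0 rose, with a median change of -0.72. Over all measured probe sets 23.2% fell and 21.8% rose in HE. The 10 include IL1RN, the interleukin 1 receptor antagonist, which is not an inducer. It differed by -1.01 in SE (adjusted p = 0.234) and by -0.75 in HE (adjusted p = 0.448). IL13RA1, a receptor chain for IL13 and IL4, fell by 2.07 in SE (adjusted p = 5.6e-05) and by 2.16 in HE (adjusted p = 0.000122). IL1R1, the signalling receptor of interleukin 1, fell by 1.50 in SE (adjusted p = 7.49e-05) and by 2.06 in HE (adjusted p = 2.61e-05). TNFRSF1A, the main TNF receptor, fell by 1.29 in SE (adjusted p = 2.46e-05) and by 1.36 in HE (adjusted p = 4.93e-05). IL1A fell by 1.75 in SE (adjusted p = 0.0467) and differed by -0.46 in HE (adjusted p = 0.639). On day 7 IL1A was below the filter in both, at 3.19 to 3.30 in SE and 2.97 to 3.02 in HE. It passed the filter only through day 0. The IL1A call was lost on leaving out any SE pool except day 0 replicate 2. It was also lost with no filter and with only the 2 groups compared, with adjusted p up to 0.161 over all of these. TNF itself lay between 2.18 and 2.26 on all endometrium arrays, below the filter.

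Of 14 measured transcription factors and regulators, 4 rose (28.6%) and 5 fell (35.7%) in each status. Over all measured probe sets 26% rose and 24.1% fell in SE, and 21.8% rose and 23.2% fell in HE. NFKBIA, the inhibitor that holds NF-kB in the cytoplasm, rose by 1.40 in SE (adjusted p = 0.00193) and by 1.62 in HE (adjusted p = 0.00189). IRF2, an interferon regulatory factor reported to act on the VCAM1 promoter in muscle cells, rose by 1.59 in SE (adjusted p = 0.00225) and by 1.44 in HE (adjusted p = 0.00822). IKBKG and CHUK rose as well in both statuses. Over the other settings and pools left out, IKBKG rose by 0.81 to 1.10 in SE and 0.62 to 0.90 in HE. CHUK rose by 0.60 to 0.76 in SE and 0.41 to 0.52 in HE. The HE call of CHUK was lost without day 0 HE replicate 1 or 2, and without day 7 HE replicate 1 or 2. That of IKBKG was lost without day 0 HE replicate 1 or day 7 HE replicate 2. NFKB2 fell by 2.18 in HE (adjusted p = 0.00192) and was also called lower in SE. IKBKB, the kinase that removes the NF-kB inhibitors, fell by 2.44 in SE (adjusted p = 4.38e-06) and by 2.29 in HE (adjusted p = 1.98e-05). STAT6, which carries the IL4 and IL13 signal, fell by 2.51 in SE (adjusted p = 6.01e-05) and by 1.70 in HE (adjusted p = 0.0019). NFKB1, a DNA-binding NF-kB subunit, fell by 1.93 in SE (adjusted p = 8.15e-05) and by 1.69 in HE (adjusted p = 0.000518), while RELA, its partner, differed by -0.31 in SE and -0.35 in HE without passing the test. FOS fell by 5.56 in SE (standard error 1.41, adjusted p = 0.00827) and differed by -2.49 in HE (standard error 1.58, adjusted p = 0.229).

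Markers of the cells that could carry VCAM1 were read beside it. Of 13 endothelial markers on the array, CLDN5, a tight junction claudin of endothelium, was the 1 measured. The defining markers VWF (2.18 to 2.26), CDH5 (2.04 to 2.12) and PECAM1 (2.52 to 3.67) were below the filter on every endometrium array. CLDN5 ran from 4.90 to 6.24 in SE pools and from 6.01 to 7.20 in HE pools on day 7, and from 2.35 to 2.42 on day 0. CLDN5 passed the filter only through day 7. Its day 7 minus day 0 differences, 3.39 in SE and 4.21 in HE, are therefore given without a test. The summed signal of the endothelial list was 6.59 to 7.15 in SE pools and 7.01 to 7.72 in HE pools on day 7, against 6.09 to 6.19 in SE and 6.11 to 6.22 in HE on day 0.

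Lists of other cell types overlapped between SE and HE on day 7. Most probe sets did so: 8.33% of all measured had the SE pools below the HE pools, and 7.93% above. VCAM1 was chosen by its day 7 difference, so its own separation cannot be set against these lists. The summed stromal fibroblast signal, with 12 of 13 markers measured and led by MGP and COL3A1, was 12.16 to 13.48 in SE pools and 12.55 to 13.43 in HE pools. Macrophage and dendritic markers, all 10 measured and led by CTSS and LAPTM5, summed to 11.68 to 12.47 in SE and 11.89 to 12.09 in HE. Lymphocyte markers, with 9 of 14 measured and JCHAIN, the joining chain of secreted antibodies, and the T cell kinase LCK in front, summed to 9.68 to 12.59 in SE and 10.85 to 11.56 in HE. Neutrophil markers, with 5 of 8 measured and led by LTF and S100A12, summed to 12.08 to 13.82 in SE and 13.30 to 13.77 in HE. Smooth muscle markers, with 3 of 6 measured and led by MYLK and ACTA2, summed to 6.02 to 8.17 in SE and 6.04 to 7.42 in HE. The ciliated epithelial list summed to 8.74 to 9.05 in SE and 8.33 to 8.99 in HE, and the erythrocyte list to 5.81 to 6.55 in SE and 5.85 to 6.35 in HE. By limma 0 of the 55 measured markers of all cell types differed between SE and HE on day 7, with 0 at an unadjusted p under 0.05. Over all 13421 measured probe sets the call was likewise 0%, with 477 at an unadjusted p under 0.05.

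**Figure D5:**
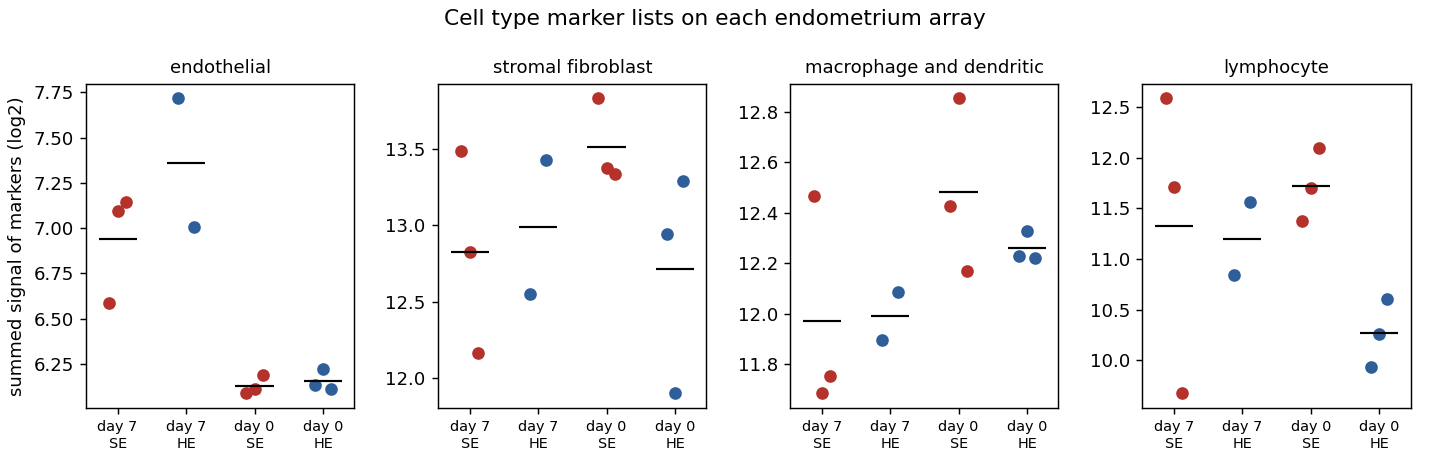
Summed signal of 4 cell type marker lists on each endometrium array (log2 of the summed linear signals, with a vertical axis of its own in each panel). Points are pools, SE in red and HE in blue, and bars are group means. On day 7 the SE and HE pools overlap in all 4 panels, with endothelial sums of 6.59 to 7.15 in SE and 7.01 to 7.72 in HE.

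Epithelial markers summed to 14.21 to 14.54 in SE and 14.48 to 14.61 in HE on day 7, against 15.55 to 15.85 in SE and 15.47 to 15.65 in HE on day 0, so the summed epithelial signal was lower on the day on which VCAM1 was measured. A measure of RNA quality separated SE from HE on both days. The 3′ minus 5′ signal of the EIF4E control probe sets was 4.05 to 4.52 in SE pools and 3.67 to 3.91 in HE pools on day 7, and 3.88 to 4.27 in SE pools and 3.70 to 3.85 in HE pools on day 0, when VCAM1 was below the filter in both. On day 7 the same measure overlapped for GAPDH (0.22 to 0.57 in SE, 0.27 to 0.39 in HE), cyclophilin (0.89 to 1.12 in SE, 0.85 to 1.23 in HE) and actin (-0.48 to -0.44 in SE, -0.45 to -0.44 in HE). The part of cell makeup and of RNA quality in the VCAM1 difference was not tested.

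Of the 4 nearest genes on each side of VCAM1 in the gene order of the RefSeq assembly ARS-UCD2.0, DPH5 and RTCA had a named probe set. DPH5, an enzyme of diphthamide synthesis, rose by 0.78 in SE (adjusted p = 0.0112) and differed by 0.16 in HE (adjusted p = 0.62). RTCA, an RNA cyclase, lay between 8.16 and 8.51 on all endometrium arrays, with differences of 0.01 in SE and -0.16 in HE.

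In blastocysts VCAM1 read 2.20 on each of the 3 SE and 2 HE arrays. This is the lowest value of those arrays, shared within 0.01 on all 5 arrays by 6980 probe sets, so no VCAM1 signal above it was seen in embryos of either status. Embryo arrays were more biased to the 3′ end than endometrium arrays. The 3′ minus 5′ signal of GAPDH was 5.47 to 5.85 in SE and 4.97 to 5.11 in HE blastocysts, against 0.03 to 0.58 in endometrium. For actin it was 3.83 to 4.03 in SE and 3.61 to 4.72 in HE blastocysts, against -0.48 to -0.34 in endometrium. Whether this hid a VCAM1 signal in embryos was not tested. ITGB1 averaged 13.38 in SE and 13.37 in HE blastocysts, and ITGA4 lay at the same lowest value of 2.20. The embryo markers measured included POU5F1, a pluripotency factor (10.03 in SE and 10.70 in HE), GATA6, a hypoblast factor (14.15 in SE and 14.12 in HE), and IFNT2, the interferon by which ruminant trophectoderm signals pregnancy (9.50 in SE and 9.91 in HE). By limma 0 of the 31 genes of the 7 lists measured in blastocysts differed between SE and HE (background 0%). At an unadjusted p under 0.05 was 1 of them, and 1029 of all 11014 measured probe sets.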

How the data were processed

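The deposited values are log2 signals per probe set, normalized by the authors with GCRMA; the submitters' processing notes name GCRMA and limma without version or order. The sources used here do not give whether endometrium and embryos were normalized together, so levels were compared within a tissue only. Of 24128 probe sets, 112 controls were left out of tests. Gene names came from the platform annotation: 13292 probe sets had 1 symbol, 86 several and 10638 none named here. No arrays were identical, with the highest correlation between arrays at 0.994.

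Group means were fitted with limma 3.58.1 in R 4.3.3, on 11 endometrium arrays in 1 fit and 5 blastocyst arrays in another, with two-sided tests and Benjamini-Hochberg adjustment over all measured probe sets at 0.05. Fits were tested on simulated data. Tables and plots used Python 3.11.15, pandas 2.3.3 and matplotlib 3.10.9. The number of arrays limits the precision.

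VCAM1, the lists and the settings were chosen with earlier results of these data known. Each listed gene was read by its measured probe set with the highest mean. A list's summed signal is log2 of its summed linear signals. The rule for named genes took the 8 genes with the highest and the 4 with the lowest Pearson r to VCAM1. It also took up to 3 list members past the threshold per list, direction and contrast, the partners ITGA4, ITGB1, ITGB7 and ICAM1, and the 2 strongest markers of each cell type with VWF, PECAM1 and CDH5. Some genes were chosen after their values were seen. These were other list members below the filter, NFKB1, RELA, CHUK, IL1RN and the second CD99 and IQSEC1 probe sets. Members of the class absent on day 0, neighbours and embryo markers were chosen in the same way. Alternatives were no filter, a filter at 5, only the 2 groups compared, further quantile normalization, array weights, an intensity trend, the replicate number as a block, gene means and each pool left out.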

Additional observations from a re-analysis of the deposited data

How the results depend on the processing

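VCAM1 kept its direction in the day 7 and day contrasts under every setting run. With single pools left out, SE minus HE ranged from -2.20 to -1.62 on day 7, day 7 minus day 0 from 4.68 to 5.26 in SE and from 6.79 to 7.22 in HE, and the plain difference of blastocyst means, taken without a fit, was 0 each time. Under the other settings these ranged from -2.01 to -1.92, from 4.90 to 4.95 and from 6.99 to 7.09. On day 0 SE minus HE ranged from -0.0018 (without SE replicate 3) to 0.23 with pools left out and from 0.12 to 0.18 otherwise, never past the test, and it has no value in the fit of the 2 day 0 groups alone, where VCAM1 is below the filter. In blastocysts VCAM1 had a fitted value without the filter only. Deviations of same-numbered pools from their group means correlated by -0.27 to 0.24. With so few pools per group this cannot show whether the numbers pair the pools. With the replicate block VCAM1 differed by -2.01 on day 7, 0.13 on day 0, and between days 4.95 in SE and 7.09 in HE, with 6380 probe sets called in SE and 5408 in HE. Calls over all probe sets ranged from 3671 to 7134 in SE (6723 in the reported fit) and from 3321 to 6395 in HE (6034), the lowest from gene means over 6810 genes. They ranged from 0 to 11 on day 0 (3) and from 0 to 10 on day 7 (0). Genes of the 7 lists called numbered 23 to 28 in SE and 18 to 24 in HE with pools left out, and 24 to 28 in SE and 21 to 29 in HE otherwise. The likeness of COL4A3 turned to -0.18 when group means were removed; the cause was not tested.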
